A study of Mus musculus with 16 samples.

Results

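Insulin-like growth factor (IGF) genes were examined in primary mammary tumors of the *Resf1* gene trap model. The group holds 10 genes of the 23609 in the deposited table. They are the IGF-binding protein genes *Igfbp2*, *Igfbp3*, *Igfbp4*, *Igfbp5*, *Igfbp6* and *Igfbp7*, the ligand gene *Igf1*, the receptor gene *Igf1r* and the adaptor genes *Irs1* and *Irs2*. The list was chosen on the gene trap against wildtype values of these same tumors, which were already known. For that reason the differences between genotypes are given for these 10 genes as a description, with no test. All 10 had a row in the table and all 10 passed the filter of a mean value of at least 10.

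Total RNA from mammary tumors was sequenced. MMTV-PyMT animals carry the polyoma middle T antigen under the mouse mammary tumor virus promoter, which is active in mammary epithelium, and both groups compared here carry this transgene. The wildtype group is MMTV-PyMT littermates with 2 intact copies of *Resf1*, and the gene trap group is MMTV-PyMT/Resf1 +/- compound animals, heterozygous for an enhancer/gene trap that expresses an EGFP-Cre fusion from the first exon of *Resf1*. The trap was made on C57BL/6 and the cross to FVB/NJ MMTV-PyMT gives F1 animals, so that both groups share a mixed background. Animal ages are not given in the labels, and no treatment was applied. Of 16 labelled tumors, 8 per group, 5 wildtype and 5 gene trap tumors were matched to a column of the table and used. The labels do not tie each tumor to a separate animal, so a p-value measures the spread between these tumors. Values are estimated counts normalized between tumors by the authors, here called normalized values, and the sequencing depth behind them is unknown.

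IGF1 and IGF2 are secreted growth factors that bind the IGF1 receptor, a tyrosine kinase. The receptor phosphorylates the adaptors IRS1 and IRS2, which recruit PI3 kinase and so activate AKT and mTOR. In the extracellular space most IGF is held by binding proteins, which extend its lifetime and limit or direct its access to the receptor until proteases release it. In the mammary gland this pathway is known for ductal growth, and IGFBP5 is known for its rise when the gland involutes after lactation.

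Some facts on the tumors bear on all values below. The column totals lay between 31995078 and 42153593. The gene trap replicate 2 tumor stood apart from the other 9 on the first principal component of all tested genes, with a score of 91.8 against -18.6 to -4.78 and 31.1% of the variance, and values without it are given where leaving it out turned a sign, changed a call or moved a value by over 1.5 times. The 8 luminal epithelium markers had mean normalized values between 2544 and 23640, so that markers of the labelled tissue were present. *Resf1*, the gene that carries the trap, had a log2 fold change of -0.22 (standard error, SE, 0.09) with a two-sided exact permutation p of 0.0635, an unadjusted limma p of 0.0313 and a limma adjusted p of 0.9997. Its normalized value was 4099 ± 400 in wildtype and 3516 ± 361 in gene trap tumors (SD, n = 5 each), and its values in 3 of 5 gene trap tumors were below the lowest wildtype value, so the groups overlapped. The difference between the means was larger than the SD of either group, but it did not pass the exact test or the test adjusted over all genes.

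The level of each gene per kilobase of its longest annotated transcript was used to order the 10 genes. *Igfbp5* was by far the highest, with 15810 ± 2724 normalized units per kilobase (SD, n = 10 tumors). *Igfbp7*, whose product binds IGF weakly and is known from vessel walls, followed with 1432 ± 255 per kilobase. The next 4 levels were 658 ± 207 for *Igfbp3*, the main carrier of IGF in serum, 588 ± 193 for *Igfbp2*, 502 ± 85.1 for *Igfbp4* and 428 ± 50.6 for *Irs1*. The lowest 4 were 218 ± 47.9 for *Irs2*, 161 ± 55.6 for *Igfbp6*, whose product prefers IGF2, 92.9 ± 29.6 for *Igf1* and 67.2 ± 12.5 for *Igf1r*. Each SD is over 10 tumors.

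Some neighbours in this order did not differ beyond their spread. *Igfbp2* was above *Igfbp3* in 4 of 10 tumors, *Igfbp4* was above *Igfbp2* in 3, *Irs1* was above *Igfbp4* in 3, *Igfbp6* was above *Irs2* in 2 and *Igf1r* was above *Igf1* in 1. The other 4 steps of the order held in every tumor, and the widest of them was the 11-fold gap between the means of *Igfbp5* and *Igfbp7*. The order of all 10 was the same whichever tumor was left out.

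**Figure D1:**
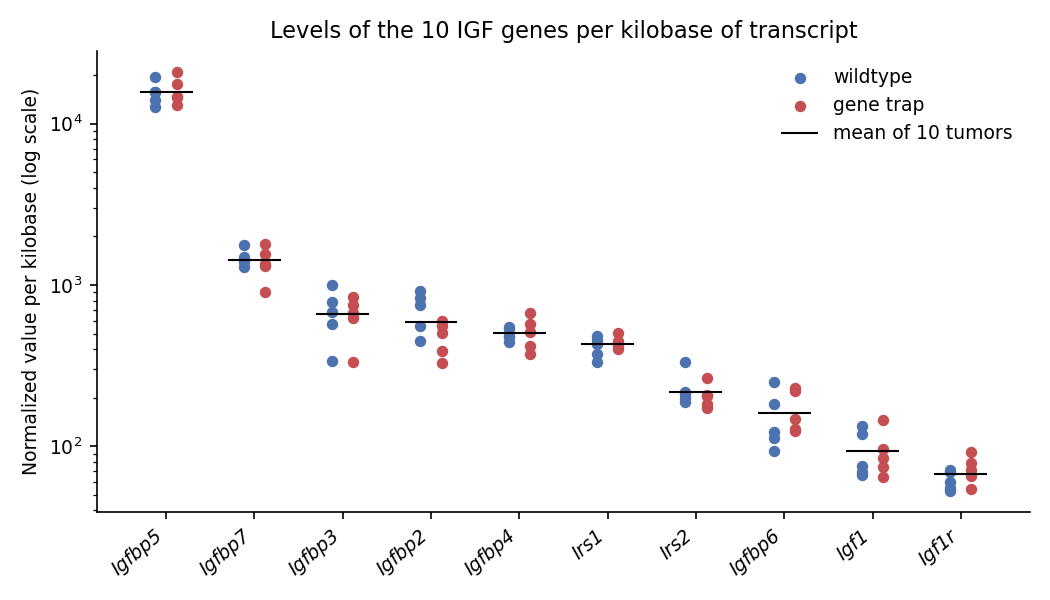
Normalized value per kilobase of the longest annotated transcript (vertical axis, log scale) for the 10 genes in order of their mean. Points are single tumors, wildtype or gene trap, and the line is the mean of 10 tumors. *Igfbp5* lies above every other gene in every tumor, and the points of *Igfbp3*, *Igfbp2*, *Igfbp4* and *Irs1* overlap.

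*Igfbp5* alone took between 0.218% and 0.386% of the summed normalized values of a tumor and ranked between place 12 and place 20 of all 23609 genes by its undivided value. Of the summed level per kilobase of the 6 binding protein genes, *Igfbp5* made up between 76.9% and 87.6%, with a median of 82.6%. The share of *Igfbp7* had a median of 7.76% and lay between 4.51% and 10.7%. The medians of the other 4 were 3.45% for *Igfbp3*, 2.97% for *Igfbp2*, 2.56% for *Igfbp4* and 0.809% for *Igfbp6*. Levels per kilobase of *Igf1* lay between the 36.2 and 50.7 percentile of tested genes in a tumor, and those of *Igf1r* between the 32.8 and 41.8 percentile. Per kilobase, *Igf1* was therefore near or below the middle of tested genes and *Igf1r* was below it. The binding protein *Igfbp5* stood at or above the 99.4 percentile in each tumor. By undivided value, *Igf1* ranked between place 6090 and 9553 and *Igf1r* between place 5975 and 8528 of all 23609 genes. Because whole tumors were sequenced, fewer cells of a type and less RNA per cell cannot be told apart in any of these values.

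The promoters printed below were selected because they belong to the gene with the largest difference between genotypes among the 10, the gene with the highest level, and the gene whose level was correlated with a cell type score, in that order. Each is the 250 bases before the annotated start, read 5′ to 3′ on the strand of the gene, from RefSeq on mouse build GRCm38.p6. The counting of reads used mm39, so these positions are not those of the deposited values. *Igfbp2* is on the plus strand at chr1:72824230-72824479 (the first of its 2 annotated starts), *Igfbp5* is on the minus strand at chr1:72874866-72875115, and *Igf1* is on the plus strand at chr10:87860861-87861110. Capitals mark a stretch of 4 or more runs of at least 3 G separated by 1 to 7 bases, letters that can form a DNA G quadruplex. The RNA levels measured here do not bear on binding of RESF1 or any other protein to these promoters.
Igfbp2: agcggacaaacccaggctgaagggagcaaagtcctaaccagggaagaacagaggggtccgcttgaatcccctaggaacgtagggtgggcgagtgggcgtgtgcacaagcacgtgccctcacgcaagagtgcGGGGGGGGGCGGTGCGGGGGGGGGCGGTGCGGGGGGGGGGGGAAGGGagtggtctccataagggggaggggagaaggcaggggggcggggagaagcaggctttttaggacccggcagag
Igfbp5: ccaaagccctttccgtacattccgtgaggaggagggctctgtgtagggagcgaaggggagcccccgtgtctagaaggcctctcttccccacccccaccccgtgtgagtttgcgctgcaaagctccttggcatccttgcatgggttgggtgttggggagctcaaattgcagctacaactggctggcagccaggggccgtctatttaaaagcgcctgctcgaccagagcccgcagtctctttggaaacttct
Igf1: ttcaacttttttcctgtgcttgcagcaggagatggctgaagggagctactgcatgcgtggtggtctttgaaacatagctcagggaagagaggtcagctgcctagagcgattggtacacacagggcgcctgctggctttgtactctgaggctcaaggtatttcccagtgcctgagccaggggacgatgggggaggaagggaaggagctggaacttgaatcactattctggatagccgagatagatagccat
Only the *Igfbp2* promoter of these 3 holds the pattern. It fills 47 bases that end 72 bases before the start, and its longest run is of 12 G. The promoter of the second annotated *Igfbp2* start, which is not printed, does not hold the pattern on either strand.

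All 10 genes matched a RefSeq promoter. The G-run pattern, searched on both strands of the 250 bases before the first annotated start, was in 6 of 10 (60%), namely *Igfbp2*, *Igfbp4*, *Igfbp7*, *Igf1r*, *Irs1* and *Irs2*. Over all promoters of the same length it was in 5483 of 32851 (16.7%), and over those of protein-coding genes in 4213 of 21263 (19.8%). The values over all promoters, here and below, take every annotated start and not the first alone. The 10 genes have 11 annotated promoters, and the second of *Igfbp2* is without the pattern. The base composition differed as well, with a median GC content of 70.8% for the 10 genes against 55.6% for protein-coding promoters, and its part in the count was not tested. The letters TATAAA were searched on both strands and found in the promoters of *Igfbp4* and *Igfbp6*, 2 of 10, against 12.4% of all promoters. In *Igfbp4* they did not overlap its G-run stretch, and *Igfbp6* has no such stretch. These matches describe letters only. *Igfbp2* and *Igfbp5* are neighbours on chromosome 1 in opposite orientation. *Igfbp2* has the pattern at the first of its 2 annotated starts only, and *Igfbp5* is without it.

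The first question was how the 10 genes compared between gene trap and wildtype tumors. In limma's test over all genes, 0 of 21034 tested genes (0%) had an adjusted p under 0.05, with a smallest adjusted p of 0.9997, and 479 had an unadjusted p under 0.05. By size alone, 3800 genes (18.1%) were at least 1.2 fold higher or lower, and among the 10 IGF genes 1 was, *Igfbp2*. The log2 fold changes of the 10 had a median of 0.01 with 4 below 0 and 6 above 0, where the median over all tested genes was 0.00. The number below 0 lay between 2 and 7 when a tumor was left out or the values were scaled or weighted in another way. For each of the 10 genes the 2 groups overlapped. The share of all tested genes whose groups overlap was not computed. With 5 against 5 tumors and no difference, full separation arises in 0.00794 of arrangements, so overlap is the usual outcome.

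**Figure D2:**
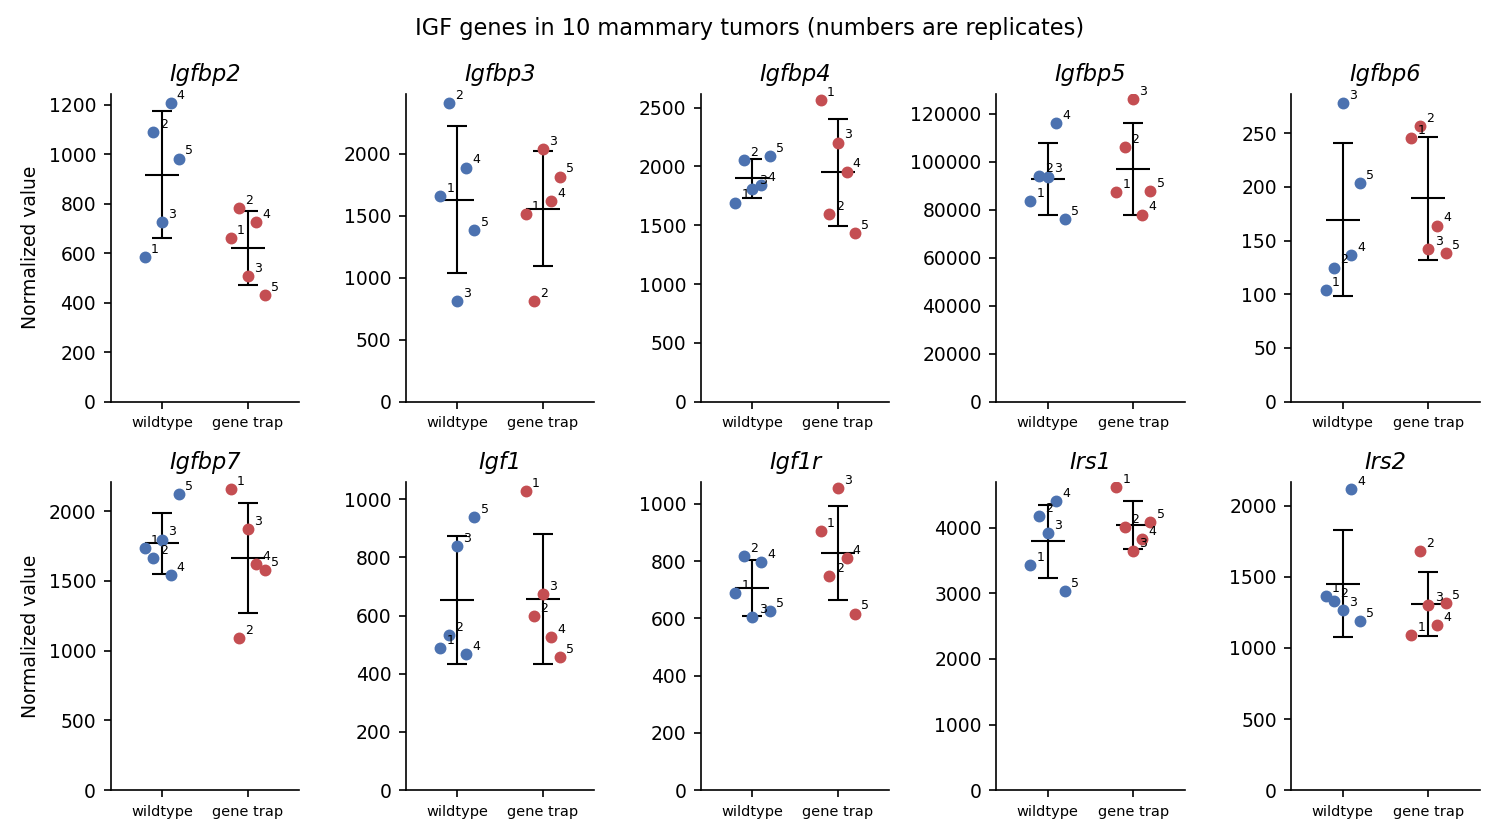
Normalized values (vertical axes, each from 0) of the 10 genes in 5 wildtype and 5 gene trap tumors. Points are tumors, small numbers are the replicate numbers, and the bars are the mean ± SD of a group. The 2 groups overlap in all 10 panels, the usual outcome for 5 against 5 tumors. *Igfbp2* has 2 gene trap tumors, replicates 3 and 5, below the lowest wildtype tumor.

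Among the binding proteins, *Igfbp2* (ENSMUSG00000039323) encodes a secreted protein that binds both IGFs and also binds integrins. Its normalized values were 584, 1088, 726, 1206 and 982 in wildtype replicates 1 to 5. In gene trap replicates 1 to 5 they were 661, 782, 506, 725 and 430. The 3 highest tumors were all wildtype, the 2 lowest were gene trap, and the other 5 were mixed. The means were 917 ± 257 and 621 ± 148 (SD, n = 5 each), and the log2 fold change was -0.55 (SE 0.21), a level of 0.684 of wildtype. It stayed between -0.70 and -0.42 whichever tumor was left out.

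Beside *Igfbp2*, the markers of myoepithelium, the contractile basal cells of the gland, also had lower values in gene trap tumors. All 7 markers on the list were lower, with a median log2 fold change of -0.36, where 10221 of 21034 tested genes were lower. Of these 7 markers, 0 passed an adjusted p of 0.05 and 2 had an unadjusted limma p under 0.05, against 479 of all tested genes. Their summed normalized value lay between 7242 and 9914 in wildtype tumors and between 5426 and 7208 in gene trap tumors, so the groups did not overlap. How often the sums of other sets of genes do not overlap was not computed. No marker of the list was at 0. *Igfbp2* correlated with the myoepithelium score with r = 0.49 over the 10 tumors (permutation p = 0.149, adjusted p = 0.531) and rho = 0.50 (permutation p = 0.144, adjusted p = 0.539), with r = 0.45 without the 2 farthest tumors, and with r = 0.01 once both were centred on their group means. Other scores were as close to *Igfbp2*. Its r was 0.51 with the adipocyte, 0.46 with the luminal epithelium and 0.38 with the skeletal muscle score. Centred on group means these were 0.44, 0.60 and 0.50, and none of them passed an adjusted p of 0.05. With the fibroblast, pericyte, endothelium and lymphocyte scores r was below 0. The part of myoepithelium or of any other cell type in the *Igfbp2* difference was not tested. All 4 tested adipocyte markers were also lower, with a median log2 fold change of -0.41 and overlapping sums of 2440 to 8625 in wildtype and 1418 to 5244 in gene trap tumors.

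*Igfbp5* (ENSMUSG00000026185) had values of 83731, 94117, 93904, 116104 and 76232 in wildtype replicates 1 to 5. In gene trap replicates 1 to 5 they were 87581, 106088, 126040, 78022 and 87699. The lowest tumor was wildtype and the highest was gene trap, with the rest intermixed. For *Igfbp5* the log2 fold change was 0.06 (SE 0.16), and it was -0.04 without gene trap replicate 3 and 0.02 without gene trap replicate 2. The highest tumor of all, gene trap replicate 3, was 1.65 times the lowest.

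*Igfbp3* (ENSMUSG00000020427) had 1656, 2405, 814, 1887 and 1384 in wildtype replicates 1 to 5 and 1510, 808, 2035, 1618 and 1815 in gene trap replicates 1 to 5. One tumor of each group, wildtype replicate 3 and gene trap replicate 2, was low, at 814 and 808, and the others were at 1384 or more. The log2 fold change of -0.04 (SE 0.29) was 0.18 without gene trap replicate 2 and -0.27 without wildtype replicate 3. It was also above 0 without wildtype replicate 2 (0.12), without wildtype replicate 4 (0.03) and with weights per tumor (0.20). The direction therefore turned with single tumors, including some that were not low.

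*Igfbp6* (ENSMUSG00000023046) had 104, 125, 278, 137 and 203 in wildtype replicates 1 to 5 and 245, 257, 142, 164 and 138 in gene trap replicates 1 to 5. High and low tumors were found in both groups, and wildtype replicate 3 was the highest of the 10. With so wide a spread the log2 fold change was 0.20 (SE 0.28). It was lowest at 0.05 without wildtype replicate 1, highest at 0.40 without wildtype replicate 3, and 0.08 without gene trap replicate 2.

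*Igfbp4*, whose product holds IGF back until the protease PAPP-A cuts it, ranged from 1693 to 2090 in wildtype and from 1434 to 2564 in gene trap tumors. Its log2 fold change was 0.01 (SE 0.14), and it lay between -0.09 without gene trap replicate 1 and 0.11 without gene trap replicate 5, with 0.08 without gene trap replicate 2. *Igfbp7* ranged from 1540 to 2124 in wildtype tumors. In gene trap tumors it was 1091 in replicate 2 and between 1580 and 2156 in the others. The log2 fold change of *Igfbp7* was -0.12 (SE 0.16), and 0.03 without gene trap replicate 2. The low value of that 1 tumor thus set the sign for *Igfbp7*.

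For the ligand, *Igf1* (ENSMUSG00000020053) had 487, 534, 841, 467 and 938 in wildtype replicates 1 to 5 and 1030, 600, 675, 525 and 456 in gene trap replicates 1 to 5. Wildtype replicates 3 and 5 and gene trap replicate 1 were high, and the other 7 tumors were at 675 or less. The log2 fold change was 0.01 (SE 0.24), and its sign differed in 6 of 19 other settings. It was -0.16 without gene trap replicate 1, 0.16 without wildtype replicate 5 and 0.03 without gene trap replicate 2. *Igf2*, the other ligand, is not among the 10 genes and was barely detected, with values between 6.26 and 19.0.

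The receptor gene *Igf1r* (ENSMUSG00000005533) had 688, 818, 603, 795 and 625 in wildtype replicates 1 to 5 and 904, 748, 1054, 812 and 616 in gene trap replicates 1 to 5. The 2 highest tumors were gene trap, and the rest were mixed. For *Igf1r* the log2 fold change was 0.22 (SE 0.14), a level of 1.16 of wildtype, and lay between 0.12 without gene trap replicate 3 and 0.32 without gene trap replicate 5. After *Igfbp2* this was the largest of the 10 differences.

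The adaptor gene *Irs1* ranged from 3035 to 4405 in wildtype and from 3643 to 4614 in gene trap tumors, and its log2 fold change was 0.10 (SE 0.11), but 0.02 without wildtype replicate 5. *Irs2* had 1365, 1331, 1263, 2114 and 1188 in wildtype replicates 1 to 5 and 1087, 1678, 1299, 1162 and 1313 in gene trap replicates 1 to 5. One tumor in each group, wildtype replicate 4 and gene trap replicate 2, was above the rest. The log2 fold change of *Irs2* was -0.13 (SE 0.16), with 0.01 without wildtype replicate 4 and -0.23 without gene trap replicate 2.

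**Figure D3:**
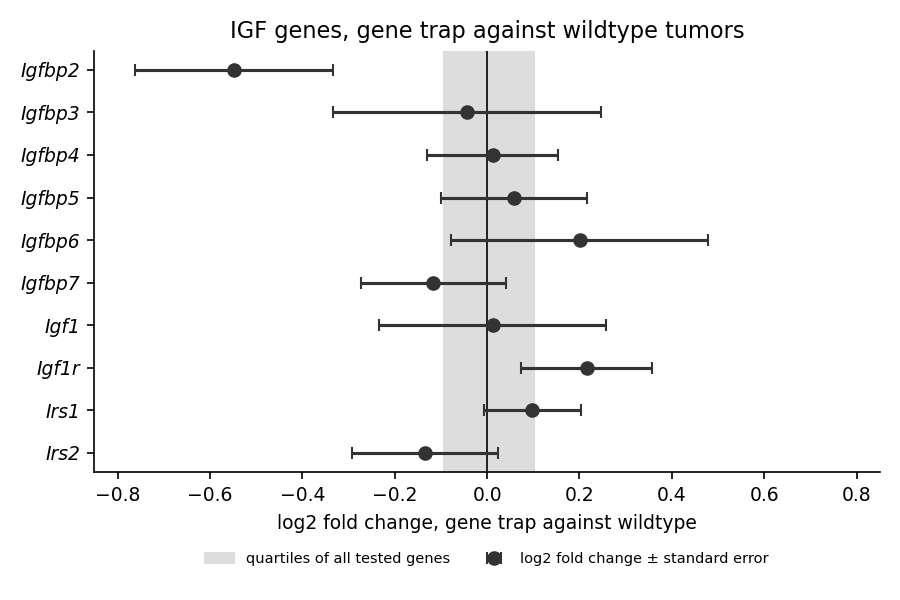
Log2 fold change of gene trap against wildtype tumors (horizontal axis) for the 10 genes, with points for the estimate and bars for 1 standard error, 5 tumors per group. The grey band spans the quartiles of all 21034 tested genes, -0.09 to 0.10. *Igfbp2* at -0.55 lies farthest from 0. The bars are no test, and the share of all tested genes whose bars miss 0 was not computed.

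The other genes of the pathway were taken from a list of 53, of which 46 were tested. Here 0 of 46 passed an adjusted p of 0.05 in limma's test in either direction, and 0 had an unadjusted p under 0.05. The second count was 2 without wildtype replicate 1, and 1 without each of wildtype replicate 2, wildtype replicate 3 and gene trap replicate 1. The log2 fold changes were below 0 for 25 and above 0 for 21, with a median of -0.01. At least 1.2-fold differences were found for 3 genes, against 18.1% of all tested genes, and these were *Igf2bp2*, *Htra1* and *Socs3*. The 6 genes with the smallest p were *Htra1*, *Rps6kb1*, *Shc1*, *Igf2bp2*, *Tsc2* and *Socs3*, each with an adjusted p of 0.9997.

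*Htra1*, a secreted protease that cuts binding proteins including IGFBP5, had a log2 fold change of -0.33 (SE 0.18), with 2 gene trap tumors below the lowest wildtype tumor. *Socs3*, an inhibitor of cytokine and insulin signaling, had -0.31 (SE 0.24), but -0.14 when wildtype replicate 4 was left out and -0.18 when wildtype replicate 2 was. The RNA-binding protein gene *Igf2bp2* had -0.53 (SE 0.35) at values between 7.84 and 27.2. *Rps6kb1*, the S6 kinase downstream of mTOR, had a log2 fold change of 0.14 (SE 0.08), the adaptor *Shc1* 0.13 (SE 0.08) and *Tsc2*, an inhibitor of mTOR, 0.12 (SE 0.09). Single tumors moved these 3 values by over 1.5 times, to 0.09 for *Rps6kb1* without wildtype replicate 4, 0.07 for *Shc1* without gene trap replicate 2, and 0.05 and 0.07 for *Tsc2* without wildtype replicate 5 and gene trap replicate 3. The insulin receptor gene *Insr*, named after its values were seen, lay between 3135 and 3699 in all 10 tumors, and the IGF2 clearance receptor gene *Igf2r* between 7521 and 14193. *Ins1*, *Ins2*, *Igfbp1*, *Igfbpl1*, *Irs4* and *Igf2bp1* were on the list but matched no gene symbol among the deposited values, and *Insrr* was below the filter.

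The second question was how the 10 genes varied together from tumor to tumor. The correlations were taken over all 10 tumors and so include any difference between the groups, on which the list was chosen, and they were repeated after centring on group means. Of 45 pairs, 0 passed an adjusted p of 0.05 in a permutation test of Pearson's r over the 10 tumors, and 5 had an unadjusted p under 0.05. After centring, 0 pairs passed as well. The closest to the threshold was the opposite pattern of *Igfbp3* and *Igfbp6*, with r = -0.82 (permutation p = 0.00182, adjusted p = 0.0819) and rho = -0.82 (permutation p = 0.00578, adjusted p = 0.255). As their values above show, wildtype replicate 3 and gene trap replicate 2 were lowest in *Igfbp3* and highest in *Igfbp6*. Without these 2 tumors, which are also the farthest from the median, r was -0.62. Leaving out wildtype replicate 1 gave -0.90, with an adjusted p of 0.009.

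*Igfbp6* and *Igf1* had r = 0.74 (permutation p = 0.0181, adjusted p = 0.349) and rho = 0.68 (permutation p = 0.0352, adjusted p = 0.255), with r = 0.86 without the 2 tumors farthest from the median. *Igfbp4* and *Igfbp7* had r = 0.69 (permutation p = 0.0283, adjusted p = 0.349) and rho = 0.75 (permutation p = 0.0173, adjusted p = 0.255), with r = 0.72 without the 2 farthest. *Igfbp4* and *Igf1* had r = 0.67 (permutation p = 0.036, adjusted p = 0.349) and rho = 0.67 (permutation p = 0.0396, adjusted p = 0.255), but r = 0.32 without gene trap replicates 1 and 5, the 2 farthest, so this relation rested on them. *Igfbp5* and *Irs2* had r = 0.62 (permutation p = 0.0497, adjusted p = 0.349) and rho = 0.58 (permutation p = 0.0886, adjusted p = 0.399), with r = 0.73 without the 2 farthest. *Igfbp7* and *Igf1* had r = 0.60 (permutation p = 0.0621, adjusted p = 0.349) and rho = 0.76 (permutation p = 0.0145, adjusted p = 0.255), with r = 0.89 without the 2 farthest. In the last pair 1 tumor decided the call. Without gene trap replicate 2, which was low in *Igfbp7*, r was 0.93 with an adjusted p of 0.0351.

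The 10 genes were then set against the scores of 9 cell type marker lists. The score of a list averages the z scores of its tested markers in a tumor, and none of the 10 genes is on a list. Of 90 pairs, 1 passed an adjusted p of 0.05 and 13 had an unadjusted p under 0.05. The 1 pair was *Igf1* and the fibroblast score, with r = 0.92 (permutation p = 0.00011, adjusted p = 0.0099) and rho = 0.88 (permutation p = 0.00165, adjusted p = 0.0743). Centred on group means its r was 0.92 with an adjusted p of 0.0315 and it was again the 1 pair that passed, and without gene trap replicate 2 it was 0.92.

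The relation of *Igf1* with the fibroblast score rested largely on 3 tumors. Wildtype replicates 3 and 5 and gene trap replicate 1 had the 3 highest *Igf1* values and fibroblast scores of 0.54, 1.02 and 1.74, where the other 7 tumors had scores between -1.28 and -0.23. Without the 2 tumors farthest from the median score, wildtype replicate 5 and gene trap replicate 1, r was 0.78. Over the 7 other tumors r was 0.50 (exact permutation p = 0.152) and rho was 0.64 (exact permutation p = 0.139), an alternative chosen after the data were seen. With single tumors left out r lay between 0.88 and 0.93, and the adjusted p was 0.099 without wildtype replicate 3, 0.116 without wildtype replicate 5 and 0.0945 without gene trap replicate 1.

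**Figure D4:**
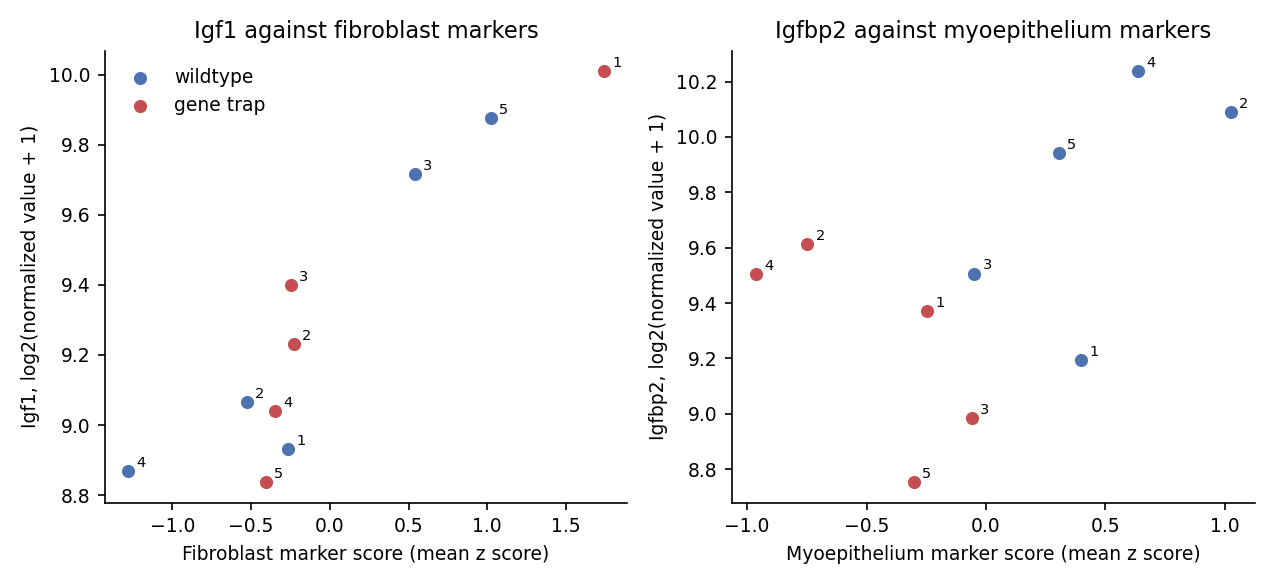
Left, *Igf1* as log2(normalized value + 1) against the fibroblast marker score. Right, *Igfbp2* on the same scale against the myoepithelium marker score. Points are 5 wildtype and 5 gene trap tumors with their replicate numbers. On the left 3 tumors are high in both measures. On the right all 5 gene trap scores are below the lowest wildtype score, by a narrow gap from -0.06 to -0.05. There r was 0.01 once both measures were centred on their group means.

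All other pairs had an r of at most 0.76 in either direction and did not pass the adjusted threshold. *Igfbp7* followed the endothelium score, with r = 0.75 (permutation p = 0.0105, adjusted p = 0.226), rho = 0.89 (permutation p = 0.00118, adjusted p = 0.0743) and r = 0.80 without the 2 farthest tumors. It passed with values rescaled to the same total per tumor, where r was 0.85 with an adjusted p of 0.0284, as did its pair with the pericyte score at r = 0.85 and an adjusted p of 0.0414. Without gene trap replicate 2 the r of *Igfbp7* with the fibroblast score was 0.91 with an adjusted p of 0.0306. *Irs2* ran opposite to the endothelium score, with r = -0.75 (permutation p = 0.00921, adjusted p = 0.226), rho = -0.54 (permutation p = 0.114, adjusted p = 0.467) and r = -0.49 without the 2 farthest tumors. It also ran opposite to the fibroblast score, with r = -0.72 (permutation p = 0.0235, adjusted p = 0.254) and r = -0.67 without the 2 farthest. For the pericyte score r was -0.68 (permutation p = 0.0282, adjusted p = 0.254), and -0.49 without the 2 farthest. With the luminal epithelium and myoepithelium scores the r of *Irs2* was above 0, at 0.49 and 0.27.

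*Igfbp6* followed the adipocyte score, with r = 0.75 (permutation p = 0.0114, adjusted p = 0.226), rho = 0.84 (permutation p = 0.0035, adjusted p = 0.105) and r = 0.78 without the 2 farthest tumors. It also followed the macrophage score, with r = 0.76 (permutation p = 0.015, adjusted p = 0.226), rho = 0.72 (permutation p = 0.0237, adjusted p = 0.234) and r = 0.68 without the 2 farthest. *Igf1* and the macrophage score had r = 0.76 (permutation p = 0.0137, adjusted p = 0.226), rho = 0.59 (permutation p = 0.0808, adjusted p = 0.383) and r = 0.58 without the 2 farthest. *Igfbp3* had the opposite sign to *Igfbp6* with both scores. For macrophage markers its r was -0.65 (permutation p = 0.0418, adjusted p = 0.317), its rho was -0.71 (permutation p = 0.0268, adjusted p = 0.234) and r was -0.53 without the 2 farthest tumors. For adipocyte markers its r was -0.63 (permutation p = 0.0495, adjusted p = 0.343), its rho was -0.77 (permutation p = 0.0122, adjusted p = 0.226) and r was -0.55 without the 2 farthest.

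**Figure D5:**
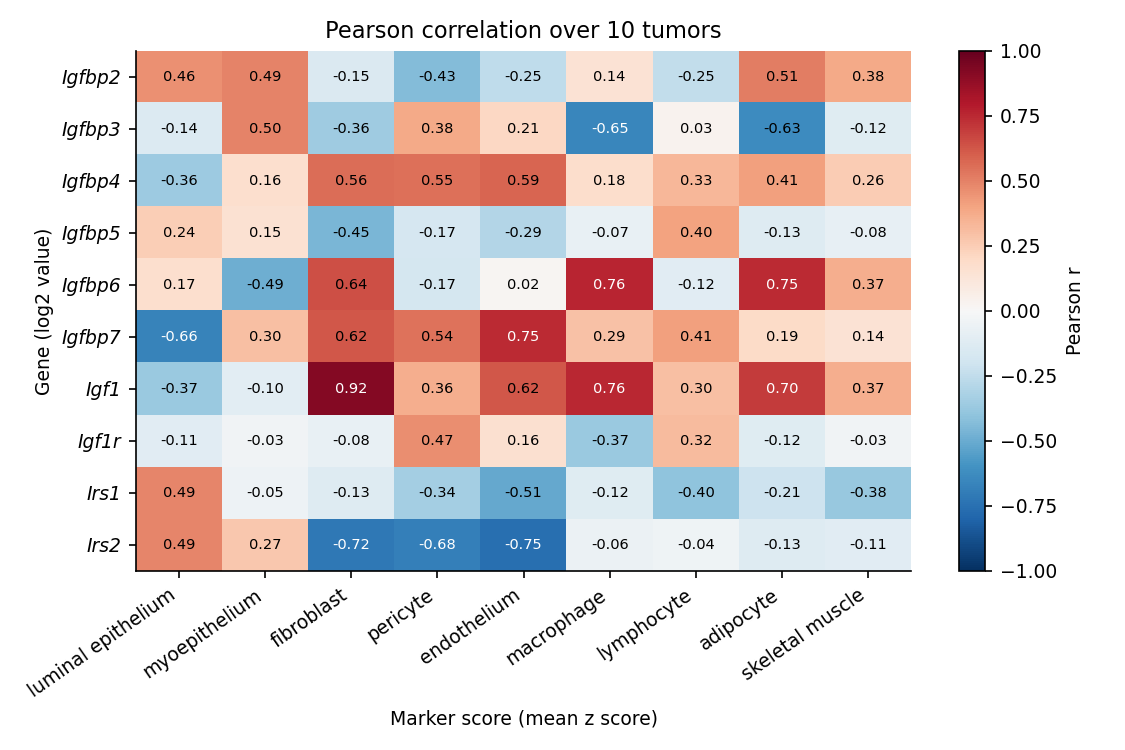
Pearson's r over 10 tumors between the log2 value of each of the 10 genes (rows) and the score of each of 9 marker lists (columns), from -1 in blue to 1 in red. *Igf1* with the fibroblast score, 0.92, is the 1 pair past an adjusted p of 0.05. *Igfbp5* and *Igf1r* have no r beyond 0.5 in either direction.

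For each of the 10 genes, the 3 genes most like it over the 10 tumors were found among 13998 genes with a mean of at least 100, by Pearson's r of log2 values centred on group means. These are descriptions with no p, chosen as the highest of many. The genes most like *Igf1* were *Papss2* (r = 0.98), *Cd248* (r = 0.97), a surface protein of fibroblasts and pericytes, and the matrix protease gene *Mmp3* (r = 0.97). *Igfbp6* was most like *Dpt* (r = 0.94), a matrix gene that is also on the fibroblast list, *Retnla* (r = 0.94) and *Gm17484* (r = 0.93). *Igfbp7* was most like *Phka2* (r = 0.96), *Pcdh7* (r = 0.95) and the laminin gene *Lama3* (r = 0.95).

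*Igfbp2* was most like the tubulin gene *Tubb2a* (r = 0.95), *Plekhg3* (r = 0.95) and the transcription factor gene *Zbtb16* (r = 0.92). *Igfbp3* was most like *Manea* (r = 0.95), *Optn* (r = 0.91) and *Sgms1* (r = 0.90). *Igfbp4* was most like *E130308A19Rik* (r = 0.97), the calcium pump gene *Atp2b4* (r = 0.94) and *Hmcn1* (r = 0.92). *Igfbp5* was most like *Prr14* (r = 0.96), the aminopeptidase gene *Anpep* (r = 0.95) and the histone methyltransferase gene *Setd1a* (r = 0.94). The nearest genes of the receptor *Igf1r* were *Map3k20* (r = 0.95), *Arhgef7* (r = 0.95) and *Prkd1* (r = 0.94). For *Irs1* they were *Stk24* (r = 0.93), *Zfp324* (r = 0.85) and *Zscan22* (r = 0.85), and for *Irs2* the claudin gene *Cldn23* (r = 0.94), *Sec14l1* (r = 0.94) and *Nabp2* (r = 0.92).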

How the data were processed

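Total RNA from mammary tumors was used for stranded RNA-seq. The authors deposited estimated counts per gene already normalized by the median ratio method, a signal with fractional values and 0 zeros, and depth cannot be recovered from it. The submitters' processing notes name Partek, STAR (version 2.7.8a), DESeq2 and mm39. Of 16 columns of values, 10 were matched to a labelled tumor, and 6 matched none and were not used. Symbols were found for 22899 (97.0%) of 23609 gene IDs.

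A pseudocount of 1 was added to each value before log2 was taken. Genes with a mean of at least 10, 21034 in all, entered limma (version 3.58.1) in R (version 4.3.3) with a variance trend and Benjamini-Hochberg adjustment, and the fit was tested on simulated data. With the pseudocount, fold changes of low genes come out too small. Levels were divided by the longest transcript in GENCODE mouse release 21. Correlations over tumors were tested by two-sided permutation (100000 resamples), adjusted over 45 gene pairs and over 90 pairs of a gene and a score.

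Genes named are the 10 IGF genes, *Resf1*, the 6 pathway genes with the smallest p and the 3 genes most like each of the 10. *Insr*, *Igf2*, *Igf2r* and *Stc2* were named after their values were seen. The 10 genes and all lists were chosen with earlier results of these data known. Alternatives were other pseudocounts, filters, scalings and weights, a replicate block and each tumor left out.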

Additional observations from a re-analysis of the deposited data

Results flagged for a closer look

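A tumor was taken as far from the others of its group where Dixon's ratio, its gap to the nearest tumor over the range of the group, was above 0.71. In 54 groups of 5 values (27 measures), 3 tumors met this, and chance alone gives about 1 in 20 groups, or 2.7.

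*Irs2* had a normalized value of 2114 in wildtype replicate 4, where the other 4 wildtype tumors lay between 1188 and 1365. *Stc2*, an inhibitor of the PAPP-A proteases that release IGF from IGFBP4 and IGFBP5, had 2103 in gene trap replicate 5 and between 244 and 680 in the other 4 gene trap tumors. It was added to the measures checked after its values were seen. Gene trap replicate 1 had a fibroblast score of 1.74, with scores between -0.41 and -0.23 in the other 4 gene trap tumors. The same tumor had the highest *Igf1* value of the 10, 1030.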

How the results depend on the processing

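Of 418 alternative values computed, 408 were counted as kept. They stayed on their side of the threshold or, where there was no test, moved by less than the spread between tumors. An order of levels with 7 of 10 places kept was also counted. This count is no measure of robustness, because many values could hardly fail it. Leaving out 1 of 5 tumors moves a group mean by less than the SD of that group. The smallest adjusted p of any limma alternative was 0.978. The *Igfbp3* log2 fold change counted as kept at both -0.27 without wildtype replicate 3 and 0.18 without gene trap replicate 2. No called direction turned, but over 19 settings the sign of the log2 fold change differed in 4 for *Igfbp3*, 5 for *Igfbp4*, 3 for *Igfbp5*, 2 for *Igfbp7*, 6 for *Igf1* and 1 for *Irs2*. It differed in 0 for *Igfbp2*, *Igfbp6*, *Igf1r* and *Irs1*. The count of 0 genes past an adjusted p held in each limma alternative, and an unadjusted p under 0.05 was found for 305 to 692 genes. The median log2 fold change of the 10 genes lay between -0.06 and 0.09 with each tumor left out. The pairs of a gene and a score past the threshold numbered 1, but 0 with Spearman's rho, 3 with values rescaled to the same total per tumor, and between 0 and 2 with each tumor left out (0 without wildtype replicate 3, wildtype replicate 5 or gene trap replicate 1, and 2 without gene trap replicate 2). The pairs among the 10 genes numbered 0, and between 0 and 1 with each tumor left out (1 without wildtype replicate 1 or gene trap replicate 2). The cause was not tested. With values not divided by length, 2 of 10 genes kept their place in the order of levels, since long transcripts then gain, and 7 of 10 did with merged exon lengths, an alternative chosen after the data were seen.

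Same-numbered tumors did not deviate together, with correlations of 0.10, -0.0030, -0.16, 0.15 and -0.14, and 1 of 5 wildtype tumors matched its own number best. With the replicate number as a block, 0 genes passed and 426 had an unadjusted p under 0.05, the median log2 fold change of the 10 genes was 0.01 and *Resf1* had -0.22, so the pairing changed no call. Precision is limited by 5 tumors per group and an unknown depth.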
